A study of Homo sapiens with 160 samples.

Results

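RHOB and its relatives among the small GTPases were followed at the RNA level in BEAS-2B, a line of human airway epithelial cells made immortal with a viral antigen. The set holds 8 genes, taken by symbol from the 29273 genes of the deposited expression table, and all 8 were found there. They are the classical members RHOA, RHOB and RHOC, the Rnd proteins RND1 and RND3, the atypical GTPases RHOU and RHOV, and CDC42EP3, a Borg protein that binds active CDC42. The cells, all wild type by their label, were kept overnight without serum and then received vehicle or 1 of 7 treatments. These were mometasone at 100 nM, indacaterol at 100 nM and carbachol at 10 µM, each alone, in each pair, and all 3 together. RNA was collected after 1, 2, 6 or 18 h, which gives 32 groups, and 150 of the 160 samples were used. Of the groups, 24 held 5 libraries, 6 held 4, and 2 held 3, namely mometasone alone and all 3 agents at 18 h. The labels do not say whether replicates are separate cultures, so the p-values rest on a spread between libraries that could be technical. All groups come from 1 cell line.

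Mometasone is a glucocorticoid that acts through a nuclear receptor. Indacaterol is a long-acting agonist of the β2-adrenoceptor, which raises cyclic AMP, and carbachol is an agonist of acetylcholine receptors. The series compares these signals in airway epithelial cells. These GTPases switch between a GTP-bound active form and a GDP-bound form. RHOA, RHOB and RHOC act through their kinases on myosin and the actin cytoskeleton. RHOB differs from the others in that it sits on endosomes as well as on the plasma membrane and is the product of an immediate-early gene with short-lived RNA. The Rnd proteins do not hydrolyse GTP, so that their amount sets their activity, and RND3 opposes RhoA signalling. RHOU and RHOV are atypical in that they exchange nucleotide without much help, and are related to CDC42. None of these activities was measured here, only RNA.

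The values are the authors' normalised expression signal per gene, called TPM in the deposited table. A log2 change is a difference of group means of log2(value + 1). An average effect is the mean of the 4 groups with an agent minus the mean of the 4 groups without it, within a time. A gene is called where limma's Benjamini-Hochberg adjusted p, over the 14827 tested genes, is below 0.05. Each agent alone is compared with the same vehicle libraries. Of the 8 genes, 7 reached 1 or more in 5 or more libraries, the filter used, and were tested, and RHOU did not. In bulk RNA, fewer cells with a transcript and less transcript per cell cannot be told apart.

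Libraries carried between 5.88% and 28.3% of their summed signal in mitochondrial genes, and 6 were above 20%, all of replicate number 1. Among the epithelial markers KRT8, KRT17 and KRT18 were high (mean values 303, 1131 and 367), while EPCAM (0.26), KRT19 (0.52), KRT5 (1.2) and CDH1 (3.31) were near 0. Of 6 fibroblast markers COL1A1 (629) and PDGFRB (110) were high and the other 4 had means below 2, so 3 of the 5 keratins matched the epithelial label, and EPCAM and CDH1 did not. The 4 endothelial markers and 3 of the 4 leukocyte markers had mean values below 1, with CD68 at 16.7. As checks of the labels, TSC22D3 separated all libraries with mometasone from those without at each of the 4 times, and NR4A3 did so for indacaterol at 1, 2 and 6 h but not at 18 h.

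The 8 genes lie on 5 chromosomes of GRCh38, by GENCODE 29. RHOB lies at chr2:20447074-20449445 on the plus strand, and its 1 annotated transcript has 1 exon. RND3 lies at chr2:150468195-150539011 and CDC42EP3 at chr2:37641882-37738468, both on the minus strand. RHOA lies at chr3:49359145-49412998, RHOC at chr1:112701106-112707434, RND1 at chr12:48857145-48865898 and RHOV at chr15:40872214-40874289, all on the minus strand, and RHOU at chr1:228735077-228746669 on the plus strand. The protein-coding gene TCTA overlaps RHOA on the opposite strand, AL603832.3 overlaps RHOC on the same strand, and AC006369.1 is antisense to CDC42EP3. No source used here gives the use of strand or the handling of shared reads, so reads of these pairs cannot be told apart. The longest exact stretch shared by annotated transcripts was 35 bases for RHOB and RHOC, 17 for RHOA and RHOB, 23 for RHOA and RHOC and 13 for RND1 and RND3.

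The promoters of the 3 genes that were higher with indacaterol are shown, as the 250 bases before the annotated start, from RefSeq on GRCh38.p14. Capitals mark the CRE half-site TGACG or its reverse complement CGTCA, and the CCAAT box CCAAT or its reverse complement ATTGG. The windows are chr2:20446824-20447073 (plus strand), chr2:150487668-150487917 (minus strand) and chr15:40874235-40874484 (minus strand).
RHOB: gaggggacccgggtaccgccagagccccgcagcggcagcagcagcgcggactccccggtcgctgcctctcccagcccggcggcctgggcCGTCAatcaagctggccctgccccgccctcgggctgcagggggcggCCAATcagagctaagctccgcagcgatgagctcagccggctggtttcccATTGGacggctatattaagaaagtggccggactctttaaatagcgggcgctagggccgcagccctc
RND3: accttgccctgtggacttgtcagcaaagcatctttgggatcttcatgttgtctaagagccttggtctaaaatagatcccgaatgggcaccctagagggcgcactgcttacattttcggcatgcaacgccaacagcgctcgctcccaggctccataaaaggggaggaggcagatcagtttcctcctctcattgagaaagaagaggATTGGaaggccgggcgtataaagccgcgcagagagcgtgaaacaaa
RHOV: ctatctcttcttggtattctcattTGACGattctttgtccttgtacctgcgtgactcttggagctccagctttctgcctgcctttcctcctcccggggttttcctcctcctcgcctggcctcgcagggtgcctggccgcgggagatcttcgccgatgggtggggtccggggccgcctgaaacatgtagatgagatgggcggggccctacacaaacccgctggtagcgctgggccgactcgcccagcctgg
RHOB held 1 CRE half-site, 161 bases before the start, and CCAAT boxes 115 and 66 bases before it. RND3 has 2 annotated starts in the table: its 1 CCAAT box lay 46 bases before the one shown and 18 before the other, and neither window held a CRE half-site, and RHOV held 1 CRE half-site at 226 bases and no CCAAT box. Of all 35116 windows of this length, 21.2% held a CRE half-site and 32.01% a CCAAT box on either strand. The full CRE TGACGTCA, in 1.65% of windows, and the glucocorticoid half-site AGAACA with its complement TGTTCT, in 12.4%, matched none of the windows of the 7 genes listed there. RHOC held a CRE half-site in 1 of its 3 windows, and RHOA held 1 CCAAT box. RND1 was not in the promoter table. A match is a description of these letters and not a site in use.

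In vehicle libraries over all times, RHOA was the most abundant of the set, with values from 636 to 856 and a median of 740. RHOC followed at 216 to 437 (median 279). RND3 (48.2 to 79.4, median 55.9), CDC42EP3 (25.3 to 63.7, median 41.2) and RHOB (15.3 to 67.0, median 24.8) formed a middle group whose ranges overlap. RND1 (0.64 to 1.73), RHOV (0 to 0.93) and RHOU (0 to 0.20) were near the low end of the table. By median, the classical GTPases RHOA and RHOC thus stood above RHOB in vehicle cells, on a scale that the deposited name gives as corrected for length. In vehicle cells none of the 21 tests of vehicle at 2, 6 or 18 h against 1 h in the 7 genes was called by limma, and 1 had an unadjusted p below 0.05. Over all tested genes those comparisons called 0.0135%, 0.324% and 0.121%. RHOB in vehicle went from 38.9 ± 18.5 (SD, n = 5) at 1 h to 18.3 ± 3.44 (n = 5) at 2 h, a log2 difference of -0.94 (SE 0.24) that was not called (limma adjusted p = 0.21) but is larger than the other vehicle differences of the set.

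RHOB rose with indacaterol within 1 h and was back near the vehicle level by 6 h. At 1 h the 5 vehicle libraries read 45.0, 24.8, 67.0, 20.5 and 37.2, and the 5 with indacaterol alone read 153, 262, 234, 304 and 196. Every indacaterol library was above every vehicle library. The log2 change was 2.62 (SE 0.24, limma adjusted p = 6.7e-17), a 6.13-fold rise. At 2 h vehicle read 15.3, 19.4, 23.9, 16.7 and 16.4, while indacaterol read 129, 237, 244, 195 and 168. The groups were again apart, in all 5 same-numbered pairs, and the log2 change was 3.32 (SE 0.24, limma adjusted p = 1.7e-23), or 9.96-fold. At 6 h the groups overlapped: vehicle averaged 32.4 ± 10.8 (SD, n = 5) and indacaterol 39.1 ± 13.6 (n = 5), with a 95% interval of the log2 change from -0.21 to 0.73. At 18 h vehicle averaged 27.1 ± 5.11 (n = 4) and indacaterol 31.1 ± 7.36 (n = 5), with an interval from -0.32 to 0.68.

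**Figure D1:**
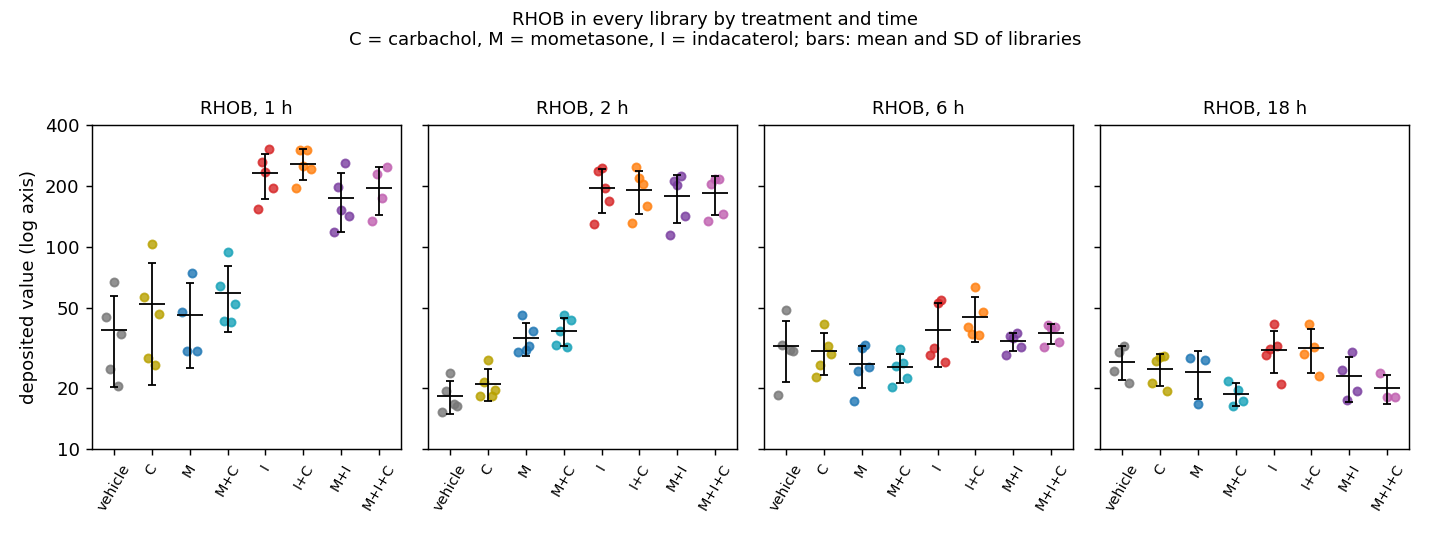
RHOB in every library, by treatment on the x axis and time in the panels, on a log axis, with points for libraries and bars for the mean and SD. All 19 libraries with indacaterol at 1 h (118 to 304) and all 20 at 2 h (114 to 246) sit above all libraries without it (20.5 to 103 and 15.3 to 46.1).

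The RHOB response held in every background. Over all treatments at 1 h, the 19 libraries with indacaterol ranged from 118 to 304 (median 227) and the 19 without from 20.5 to 103 (median 45.0). At 2 h the 20 with it ranged from 114 to 246 (median 202) and the 20 without from 15.3 to 46.1 (median 28.9), so the ranges did not overlap at either time. The average indacaterol effect was 2.18 (SE 0.12) at 1 h and 2.72 (SE 0.12) at 2 h on the log2 scale. At 6 h it was 0.44 (SE 0.12, limma adjusted p = 0.0051), with overlapping ranges of 26.9 to 63.5 with indacaterol and 17.3 to 48.8 without. That last call was at its limit with every library rescaled to the same sum (0.41, adjusted p = 0.05004). At 18 h the average effect was 0.13, with a 95% interval from -0.14 to 0.40, and was not called. The change of the average effect from 2 to 6 h was -2.28 (SE 0.17, limma adjusted p = 4.3e-23), and the change from 1 to 2 h was 0.54 (SE 0.17, adjusted p = 0.099). In the summed signal of RHOA, RHOB and RHOC, the share of RHOB was 1.73% ± 0.40 (SD, n = 5) in vehicle and 15.4% ± 3.28 (n = 5) with indacaterol at 2 h.

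The libraries of indacaterol alone with the lowest RHOB at 1 h (153) and 2 h (129) are both replicate 1, which are also among the 6 libraries above 20% mitochondrial signal. Without those 6 libraries the log2 change of indacaterol alone was 2.75 at 1 h and 3.45 at 2 h.

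By group means at 2 h, RHOB was lowest in vehicle (18.3), then carbachol (21.1), mometasone (35.6) and mometasone with carbachol (38.5). It was highest in the 4 groups with indacaterol, at 178 with mometasone, 183 with all 3 agents, 191 with carbachol and 195 alone. Vehicle and carbachol overlapped in range, as did the pair of mometasone groups, and neighbours among the 4 indacaterol groups, while neighbours across these steps did not. At 1 h the order was less graded, and the only step without overlap of neighbours was between the groups without and with indacaterol.

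Mometasone raised RHOB at 2 h, to a smaller extent. Mometasone alone read 30.3, 46.1, 31.1, 32.5 and 38.3 at 2 h, each above all 5 vehicle libraries. The log2 change was 0.92 (SE 0.24, limma adjusted p = 0.012), or 1.89-fold. This call was lost with libraries rescaled to the same sum (0.92, adjusted p = 0.11) and without replicate 2, 4 or 5 (lowest 0.85 without replicate 2, adjusted p = 0.18). The average mometasone effect on RHOB at 2 h was 0.39 (SE 0.12, adjusted p = 0.018), also lost without the libraries of high mitochondrial signal and without replicate 2, 4 or 5. At 18 h the average effect was -0.40 (SE 0.14, adjusted p = 0.016), with overlapping ranges of 16.4 to 30.2 with and 19.4 to 41.8 without mometasone. Without replicate 3 that effect was -0.19 (adjusted p = 0.34), and with rescaled libraries it was -0.35 (adjusted p = 0.096). At 1 and 6 h the average effects of -0.07 and -0.22 were not called.

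On the log2 scale the effects of both agents did not add up for RHOB at 2 h. Whether they added up on the deposited scale was not tested. Averaged over carbachol, indacaterol changed RHOB by 3.21 (95% interval 2.87 to 3.54) without mometasone and by 2.23 (1.90 to 2.57) with it, on the log2 scale, or 9.24-fold and 4.70-fold. The interaction was -0.98 (SE 0.24, limma adjusted p = 0.0099). Seen the other way, mometasone changed RHOB by 0.88 (0.55 to 1.21) without indacaterol and by -0.10 (-0.43 to 0.24) with it. The interaction missed the threshold with libraries rescaled to the same sum (-0.79, adjusted p = 0.22), without replicate 2 (-0.92, adjusted p = 0.15) and without replicate 5 (-0.89, adjusted p = 0.078). At 1 h the same interaction was -0.69 (SE 0.25, adjusted p = 0.18) and at 6 and 18 h it was 0.06 and -0.24, none of them called. Over all genes this interaction called 0.614%, 1.17%, 0.735% and 0.121% of tested genes at 1, 2, 6 and 18 h. Among the 7 tested genes it called RND3 at 1 h and RHOB at 2 h, and none at 6 and 18 h, where none had an unadjusted p below 0.05 either.

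**Figure D2:**
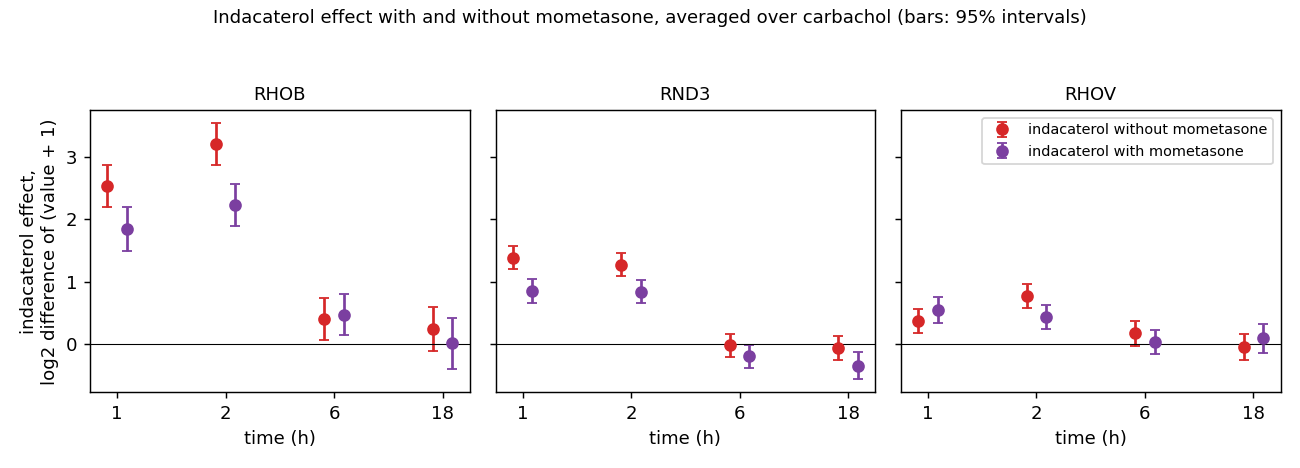
Indacaterol effect on RHOB, RND3 and RHOV at each time (x axis, h), as a log2 difference of (value + 1) averaged over carbachol, without mometasone (red) and with it (purple), with 95% intervals. For RHOB at 2 h the effect was 3.21 without and 2.23 with mometasone, and by 18 h the RHOB intervals of both cover 0. RHOV entered this filtered fit through libraries with indacaterol, so its points are not independent of the filter.

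RND3, the antagonist of RhoA signalling, rose early with indacaterol and was lower with mometasone throughout. With indacaterol alone at 1 h the libraries read 165, 184, 180, 206 and 165, against 69.7, 50.9, 79.4, 54.5 and 56.5 in vehicle. No values overlapped, and the log2 change was 1.53 (SE 0.13, limma adjusted p = 2.2e-18). At 2 h the values were 108, 141, 151, 168 and 122 against 55.1, 56.9, 52.2, 69.2 and 48.2, again apart, with a log2 change of 1.27 (SE 0.13, adjusted p = 2.9e-14). At 6 and 18 h the changes of 0.05 and -0.12 were not called. On average indacaterol changed RND3 by 1.11 (SE 0.07) at 1 h and 1.05 (SE 0.07) at 2 h, and its change from 2 to 6 h was -1.16 (SE 0.09, adjusted p = 9.5e-21).

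Mometasone lowered RND3 at all 4 times on average. The average effects were -0.49, -0.74, -0.74 and -0.79 at 1, 2, 6 and 18 h (SE 0.07 at each), and each was called. At 6 h the 20 libraries with mometasone (27.7 to 38.7) lay below all 20 without (49.6 to 64.3). At 18 h the 14 with mometasone (24.4 to 43.1) lay below all 18 without (44.9 to 62.1), as the plot of RND3 by library shows. At 2 h mometasone alone read 38.9, 37.2, 41.0, 36.4 and 38.5, all below vehicle, with a log2 change of -0.53 (SE 0.13, limma adjusted p = 0.0066). That call was lost with libraries rescaled to the same sum (-0.54, adjusted p = 0.22) and without replicate 2 (-0.52) or 4 (-0.44). Mometasone alone gave -0.63 at 6 h and -0.69 at 18 h, both called, the second lost with rescaled libraries (-0.52, adjusted p = 0.16). At 1 h mometasone alone gave -0.16, with a 95% interval from -0.43 to 0.12.

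The opposite directions of the agents met in the combined groups. At 2 h RND3 averaged 56.3 ± 7.93 (SD, n = 5) with vehicle, 138 ± 23.5 with indacaterol, 67.7 ± 9.45 with mometasone and indacaterol, and 38.4 ± 1.76 with mometasone. The group with both agents overlapped vehicle in range but was higher in 5 of 5 same-numbered pairs. The interaction of mometasone and indacaterol was -0.53 (SE 0.14, limma adjusted p = 0.033) at 1 h and -0.44 (SE 0.13, adjusted p = 0.083) at 2 h. The 1 h call was lost in 7 of the alternatives, among them a pseudocount of 0.1 (-0.53, adjusted p = 0.050), each time fitted alone (-0.53, adjusted p = 0.47) and the fits without replicate 1, 2 or 4. At 2 h it was called without the libraries of high mitochondrial signal (-0.52, adjusted p = 0.016).

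**Figure D3:**
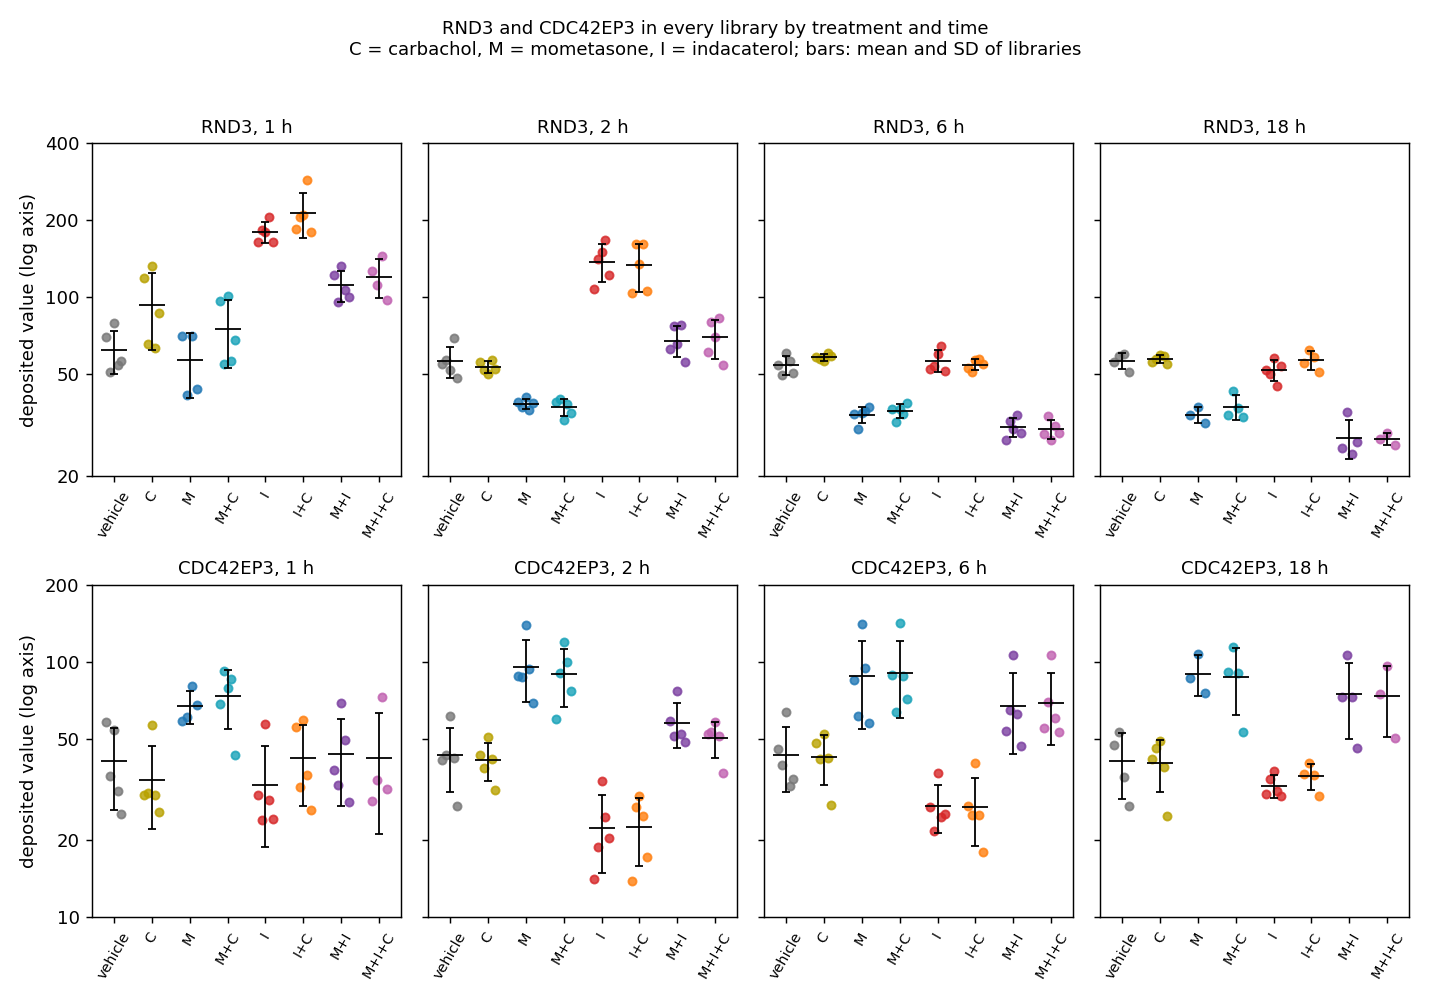
RND3 (top) and CDC42EP3 (bottom) in every library by treatment (x axis) and time (panels), on log axes, with bars for the mean and SD. At 6 and 18 h all mometasone libraries lie below all others for RND3, and CDC42EP3 shows the opposite direction with overlapping ranges.

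CDC42EP3, whose product binds CDC42 and septins, rose with mometasone, by 0.55 (SE 0.13), 1.18 (SE 0.13), 1.1404 (SE 0.13) and 1.08 (SE 0.14) on average at 1, 2, 6 and 18 h, each called by limma, although the 1 h call was lost without replicate 2 (0.52, adjusted p = 0.11) or replicate 4 (0.50, adjusted p = 0.16). The 1 h average held 0.92 (95% interval 0.55 to 1.28) without indacaterol and 0.18 (-0.18 to 0.55) with it, and the interaction of -0.73 (SE 0.26, limma adjusted p = 0.18) was not called. At 2 h the same effects were 1.10 and 1.26. At 2 h mometasone alone read 88.1, 87.0, 139, 93.7 and 69.0, against 41.2, 43.4, 61.4, 42.0 and 27.4 in vehicle. The groups did not overlap, and the log2 change was 1.13 (SE 0.25, limma adjusted p = 0.0013), or 0.057 in adjusted p with rescaled libraries. At 6 and 18 h mometasone alone gave 0.97 and 1.15, both called, the first lost with rescaled libraries (0.87, adjusted p = 0.098) and without replicate 4 (0.83, adjusted p = 0.10), the second without replicate 2 (1.25, adjusted p = 0.052) or 4 (1.21, adjusted p = 0.060) and with only the groups compared (1.15, adjusted p = 0.063). At 1 h mometasone alone read 58.9, 60.8, 80.4 and 68.0 and vehicle 58.1, 35.6, 54.1, 31.1 and 25.3, with no overlap and a log2 change of 0.76 (SE 0.27, adjusted p = 0.50). In that comparison same-numbered libraries deviated together, and with the replicate number as a block the change was 0.63 (adjusted p = 0.0040).

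CDC42EP3 fell with indacaterol at 2 and 6 h, with average effects of -0.82 (SE 0.13) and -0.51 (SE 0.13), while the effects of -0.39 at 1 h (adjusted p = 0.062) and -0.24 at 18 h were not called. The 1 h average held -0.027 (95% interval -0.38 to 0.33) without mometasone and -0.76 (-1.14 to -0.39) with it, by the same interaction. At 2 h indacaterol alone read 14.1, 18.9, 34.2, 24.7 and 20.4, below vehicle in 5 of 5 same-numbered pairs but with overlapping ranges. The log2 change was -0.92 (SE 0.25, limma adjusted p = 0.012), and it missed the threshold without replicate 1 (-0.78, adjusted p = 0.20), 2 (-0.86, adjusted p = 0.18) or 4 (-0.97, adjusted p = 0.092) and in 3 further alternatives. At 2 h the group means ran from 22.4 with indacaterol through 43.1 with vehicle and 57.6 with both agents to 95.3 with mometasone. Libraries with replicate number 3 held the highest CDC42EP3 value in 30 of 32 groups, whatever the treatment. What the number stands for is not given in the labels. With the replicate number as a block, the average indacaterol effect at 1 h was called (-0.39, SE 0.07, limma adjusted p = 4.2e-06). Indacaterol alone at 6 h was then called too (-0.63, adjusted p = 3.4e-04, against 0.32 without the block). In these comparisons not every same-numbered pair correlated above 0.1.

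RHOV, an atypical GTPase, was low and was higher in libraries with indacaterol. It passed the filter through 20 libraries at or above 1, and all of these held indacaterol at 1 or 2 h except 1 carbachol library at 2 h (1.07). Passing the filter and the response to indacaterol are therefore not independent, and the indacaterol tests given for RHOV are from the fit with no filter on low values. At 2 h indacaterol alone read 1.87, 1.43, 1.29, 1.12 and 1.99, and vehicle 0.63, 0.32, 0.32, 0.26 and 0.68. All 5 were above all vehicle values, and the log2 change of (value + 1) was 0.81 (SE 0.14, limma adjusted p = 3.4e-06 with no filter). On that scale a low gene is understated: the ratio of group means was 3.48. Averaged over backgrounds the indacaterol effect was 0.46 (SE 0.07, adjusted p = 2.2e-07 with no filter) at 1 h and 0.60 (SE 0.07, adjusted p = 1.1e-12) at 2 h. From 2 to 6 h it changed by -0.50 (SE 0.10, adjusted p = 6.2e-05 with no filter), to 0.10 at 6 h and 0.02 at 18 h, neither called. The tests of the average mometasone effect on RHOV are from the filtered fit except where stated, and they too are not independent of the filter. The average mometasone effect was -0.27 (SE 0.07, adjusted p = 0.0036) at 2 h, lost without replicate 1 (-0.19, adjusted p = 0.20). It was -0.09 (95% interval -0.29 to 0.10) without indacaterol and -0.44 (-0.63 to -0.24) with it, and the interaction of -0.35 (adjusted p = 0.36) was not called. At 18 h the average mometasone effect was -0.20 (adjusted p = 0.044), lost with no filter (adjusted p = 0.061) and in each fit without 1 replicate number. RHOV was listed at 0 in 1 library.

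RND1, the close relative of RND3, stayed near a value of 1 in every group, from 0.67 ± 0.21 (SD, n = 5) with mometasone at 2 h to 1.498 ± 0.154 (n = 4) with indacaterol and carbachol at 18 h. It was called in none of the 38 comparisons by limma. Its average indacaterol effect at 2 h was 0.07, with a 95% interval from -0.07 to 0.22, whereas that of RND3 was 1.05. The average mometasone effect on RND1 at 6 h was 0.18 (adjusted p = 0.053).

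RHOU was below a value of 1 in every library and was not tested in the filtered fit. With mometasone and indacaterol at 2 h the libraries read 0.49, 0.27, 0.37, 0.22 and 0.42, and in vehicle 0.06, 0.05, 0.08, 0.07 and 0.07. These 2 groups did not overlap. With no filter on low values, the average mometasone effect on RHOU was 0.18 (SE 0.02, limma adjusted p = 4.4e-09) at 2 h and 0.17 (adjusted p = 4.1e-09) at 6 h on the log2(value + 1) scale, and the average indacaterol effect at 2 h was 0.11 (adjusted p = 3.2e-04). RHOU was listed at 0 in 3 libraries. Depth is unknown, and at such values small differences cannot be resolved.

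RHOA and RHOC, the abundant classical members, showed no called change with indacaterol at any time. For RHOA the average indacaterol effect at 2 h was 0.02, with a 95% interval from -0.05 to 0.08, and for RHOC it was -0.01, with an interval from -0.18 to 0.15. The effect on RHOB at that time was 2.72.

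With mometasone RHOA and RHOC fell at 18 h. At 18 h the 14 libraries with mometasone ranged from 549 to 643 in RHOA (median 614) and the 18 without from 670 to 830.5 (median 724), with no overlap. The average effect on RHOA was -0.27 (SE 0.04, limma adjusted p = 5.3e-10) but was -0.027 (adjusted p = 0.77) with quantile normalization. For mometasone alone the change in RHOA at 18 h was -0.34 (SE 0.08, adjusted p = 0.00075), -0.16 (adjusted p = 0.50) with libraries rescaled to the same sum, and turned to 0.031 with quantile normalization. With only the groups compared its adjusted p was 0.15. RHOC ranged from 146 to 267 with mometasone and from 189 to 404 without at 18 h, which overlap, and its average effect was -0.46 (SE 0.09, adjusted p = 2.5e-05). That of RHOC kept its call in every alternative, at -0.49 to -0.37. Mometasone alone gave -0.66 in RHOC at 18 h (SE 0.20, adjusted p = 0.016), which missed the threshold in 5 alternatives, among them without replicate 2 (-0.73, adjusted p = 0.11), 4 (-0.77, adjusted p = 0.065) and 5 (-0.48, adjusted p = 0.067). At 1, 2 and 6 h the average mometasone effects on both genes were not called, and the difference from 18 h was not tested.

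**Figure D4:**
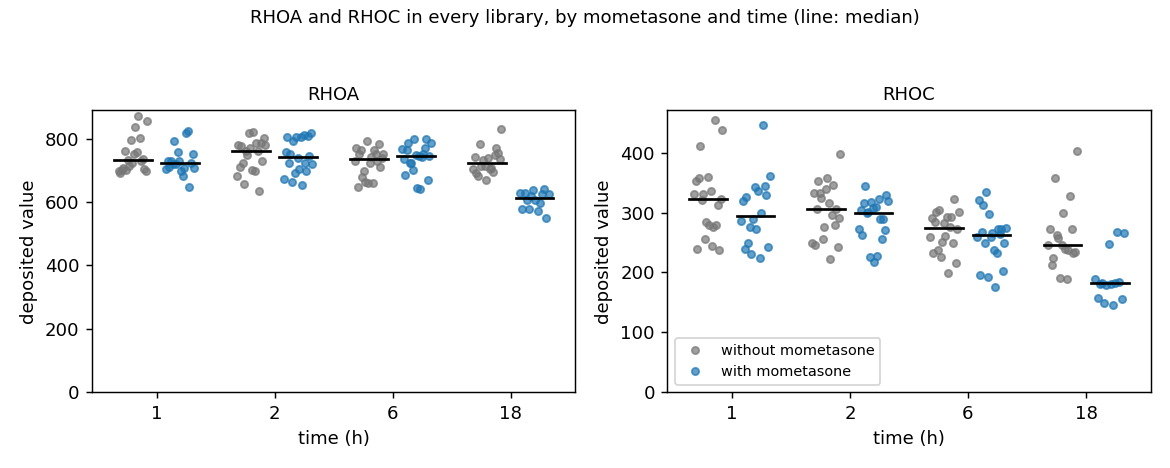
RHOA and RHOC in every library at each time (x axis, h; y axis, deposited value from 0), without mometasone (grey) and with it (blue), with a line at the median. At 18 h RHOA reads 549 to 643 with mometasone and 670 to 830.5 without, a difference that quantile normalization removes, while the earlier times overlap.

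Over all 7 tested genes, indacaterol alone called 2, 4, 0 and 0 at 1, 2, 6 and 18 h, where 1.4%, 3.91%, 1.74% and 0.202% of all tested genes were called. At 6 h 1 of the 7 had an unadjusted p below 0.05, and at 18 h none had. The average indacaterol effect called 3, 4, 2 and 0 of the 7, against 4.51%, 13.5%, 13.1% and 1.6% of all genes, and at 18 h 1 had an unadjusted p below 0.05. Those called higher were RHOB, RND3 and RHOV, and the one called lower was CDC42EP3. RHOV entered the 7 through libraries with indacaterol, so its place in these counts is not independent of the filter. Mometasone alone called 0, 3, 2 and 4 of the 7 (0.472%, 1.99%, 9.61% and 9.1% of all genes), with 1 at an unadjusted p below 0.05 at 1 h. The average mometasone effect called 2, 4, 2 and 6 (2.64%, 8.58%, 33% and 31.5%). Alternatives given above lost the calls of RHOA, RHOB and RHOV at 18 h. They also lost those of RHOB and RHOV at 2 h and of CDC42EP3 at 1 h. Changes of the average indacaterol effect called 0 of 7 from 1 to 2 h, 3 from 2 to 6 h and 0 from 6 to 18 h (1.69%, 8.64% and 3.16% of all genes). From 1 to 2 h 2 of the 7 had an unadjusted p below 0.05, and from 6 to 18 h none had.

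**Figure D5:**
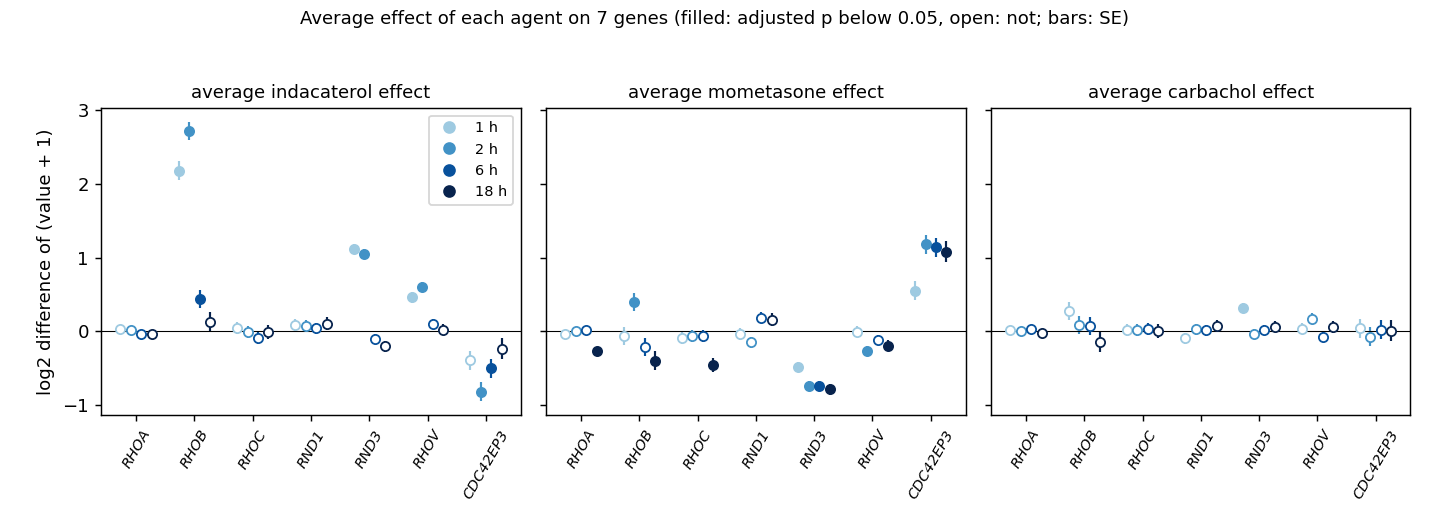
Average effect of indacaterol, mometasone and carbachol on the 7 tested genes at 4 times, as a log2 difference of (value + 1) with SE, filled where the adjusted p was below 0.05. RHOB, RND3 and RHOV stand above 0 with indacaterol at 1 and 2 h, and with mometasone RND3 stands below and CDC42EP3 above 0 at all 4 times, while RHOA at 18 h lies below 0 here but at -0.027 with quantile normalization. The points of RHOV are from the filtered fit, which it entered through libraries with indacaterol, so they are not independent of the filter.

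Carbachol touched these genes little. Carbachol alone called none of the 7 by limma at any time, against 0.0809%, 0.027%, 0% and 0.00674% of all genes, and 1 of the 28 tests had an unadjusted p below 0.05. That was RND3 at 1 h, where carbachol alone read 119, 65.6, 132, 63.6 and 87.1 and vehicle 69.7, 50.9, 79.4, 54.5 and 56.5. The ranges overlapped, and 5 of 5 same-numbered pairs were higher. The log2 change was 0.54 (SE 0.13, limma adjusted p = 0.086), with values from 0.44 to 0.62 over the alternatives. It was called without replicate 4 (0.62, adjusted p = 0.047) and with the replicate number as a block (0.54, SE 0.10, adjusted p = 5.8e-04). In this comparison not every same-numbered pair correlated above 0.1. The average carbachol effect called RND3 at 1 h (0.32, SE 0.07, limma adjusted p = 0.0050) and no other of the 7 at any time. Of all genes it called 0.189%, 0.121%, 0% and 0%. An unadjusted p below 0.05 was reached by 2, 1, 0 and 0 of the 7, and by 509, 397, 275 and 150 of the 14827 tested genes. The RND3 call was lost in 6 alternatives, with an adjusted p of up to 0.95 when each time was fitted alone and of 0.054 to 0.061 without replicate 1, 2, 3 or 5. For RHOB the average carbachol effect at 1 h was 0.28, with a 95% interval from 0.04 to 0.52 and an adjusted p of 1. The interaction of indacaterol and carbachol called none of the 7 by limma at any time, against 0%, 0.0202%, 0% and 0% of all genes, and 1 of 28 tests had an unadjusted p below 0.05.

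Other genes of the same pathway were read from 7 lists with 96 genes, of which 92 were tested. With indacaterol on average, the counts called higher among the 92 at 1, 2, 6 and 18 h were 2, 6, 2 and 0, and those called lower 1, 8, 14 and 1, beside the shares of all genes given above. With mometasone the counts at these times were 1, 5, 18 and 10 higher and 1, 4, 21 and 21 lower. The median log2 change of the 92 was close to that of all genes: 0.00 against 0.01 for indacaterol at 2 h and -0.01 against 0.05 for mometasone at 18 h. Carbachol called none of the 92 by limma.

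Among the 15 CDC42 effectors and Borg proteins, the average indacaterol effect called 3 higher and 2 lower at 2 h, where 13.5% of all tested genes were called. CDC42EP2, another Borg protein, rose from a mean value of 29.5 to 66.4, by 1.136 (SE 0.096, limma adjusted p = 4.8e-20), in contrast to the fall of CDC42EP3 at the same time. CDC42EP1 fell with indacaterol at 2 h by 0.50 and with mometasone at 18 h by 0.97 on the log2 scale. CDC42SE2, a small CDC42 binding protein, rose with mometasone at 6 h by 0.79, and PAK2, a kinase activated by CDC42 and RAC1, rose with mometasone at 18 h by 0.57.

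Of 23 effectors of RhoA and genes of the myosin and cofilin arm, the average mometasone effect called 0 higher and 8 lower at 18 h, with a median of -0.01. Counted in both directions together, 8 of 23 is near the 31.5% of all tested genes called there. By direction, 2616 of the 14827 tested genes were called higher and 2052 lower. Whether the 23 differ from all genes in direction was not tested. MYLK, the kinase of the myosin light chain, fell from 34.0 to 15.2, by 1.12 (SE 0.18, limma adjusted p = 1.5e-07). The light chains MYL12A and MYL12B fell by 0.73 and 0.67, and MYL9 fell by 0.47. At 2 h neither indacaterol nor mometasone called any of the 23.

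Among 15 exchange factors for RhoA, the average mometasone effect called 2 higher and 6 lower at 6 h, where 33% of all tested genes were called. AKAP13 rose by 0.95 (SE 0.14, limma adjusted p = 3.2e-09), whereas ARHGEF2, ARHGEF28 and ECT2 fell by 0.53, 0.53 and 0.52. Among 18 GTPase activating proteins it called 4 higher and 4 lower at 6 h, against the same 33%. DLC1, which switches RhoA off, rose with indacaterol at 2 h by 0.72 and fell with mometasone at 6 h by 0.93. ARHGAP26 moved the other way, falling by 0.59 with indacaterol at 6 h and rising by 0.82 with mometasone at 6 h. In the 13 other tested genes of the GTPase family, RHOBTB3 rose with mometasone at 18 h from 134 to 278 (1.06, SE 0.15, adjusted p = 3.2e-09). RHOF, a GTPase of filopodia, rose with indacaterol at 2 h by 0.44 and fell with mometasone at 6 h by 0.62. Of the RhoGDI chaperones, ARHGDIA fell with mometasone at 18 h by 0.32. Among the 6 prenylation enzymes the called changes were small, such as ICMT at -0.32 with mometasone at 6 h.

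The genes whose group means ran most like those of RHOB over the 32 groups were SIK1B and SIK1 (Pearson r 0.98 and 0.97), CD274 (0.96), NR4A3 (0.96) and TSC22D1 (0.95). SIK1B and SIK1 are near-identical copies, so their reads may be split between them. For RND3 they were IL6 (0.96), BHLHE40 (0.95), SLC25A25 (0.95), DUSP8 (0.94) and PLK2 (0.93), and for RHOV METRNL (0.94), MALSU1 (0.93), PEDS1 (0.91), PVR (0.90) and KRT8P42 (0.90). For RND1 the best correlations were lower, from 0.80 for CCDC174 to 0.78 for RETREG3. Within the set, the group means of RHOB correlated with those of RND3 at 0.83 and of RHOV at 0.82. RHOA and RHOC correlated at 0.84, and RND3 and CDC42EP3 at -0.68. These values describe 32 group means that share treatments and times, and carry no test.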

How the data were processed

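RNA of BEAS-2B cells was sequenced with 2 sequencing kits per the series' design text, and the labels used here do not say which library went on which. Per the submitters' processing notes the tools were bcl2fastq 2.17.1.14 and STAR 2.4.2a, with GRCh38 as the build. For quantification, annotation, strand and scaling nothing is stated in those notes. The authors deposited a value per gene and library and call it TPM, but columns sum to between 847289 and 1498420, so the values were taken as a normalised signal as deposited. The design had assumed TPM, and limma on log2(value + 1) suits either unit. No counting interval is given, since depth is unknown. Of the columns 10 were not used: 4 hold no values and 6 are headed with a time that no label gives. At 18 h replicate number 1 was left only in indacaterol alone and carbachol alone, so no library with mometasone there has it.

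The 8 genes and all lists were chosen with earlier results of these data known. The 14827 genes that reached 1 in 5 or more libraries were tested. Values were fitted with limma 3.58.1 in R 4.3.3 as 1 model with 32 group coefficients, 118 residual degrees of freedom and a trended eBayes prior, and p-values were adjusted within each comparison. Named genes are the 8, the 5 tested genes correlating best with RHOB, RND1, RND3 and RHOV over group means, and up to 4 called genes per pathway list and agent with the largest change. The fit was tested on simulated data. Estimates of one agent with and without another were added later as 95% intervals only. Figures were drawn with matplotlib.

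Replicate numbers come from the sample titles. They were taken to pair samples where every same-numbered pair of libraries correlated above 0.1 in its deviations from group means. This held for mometasone alone at 1 h, for each agent alone at 2 h, for carbachol alone at 6 h and for indacaterol and carbachol alone at 18 h, and for no other comparison within a time.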

Additional observations from a re-analysis of the deposited data

Results flagged for a closer look

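Of 210 groups of 4 or 5 libraries of the 7 tested genes, 10 held a value far from the others by Dixon's test, where chance flags about 1 in 20. For RHOA these were vehicle at 1 h replicate 5 (856, the others 697 to 736), carbachol at 1 h replicate 5 (761, the others 692 to 707) and indacaterol at 6 h replicate 4 (792, the others 661 to 699). For RHOC it was mometasone with carbachol at 2 h replicate 3 (226, the others 298.75 to 317), and for RND3 indacaterol with carbachol at 1 h replicate 4 (287, the others 181 to 210). For RHOV they were all 3 agents at 6 h replicate 2 (0.55, the others 0.20 to 0.30) and indacaterol at 18 h replicate 5 (0.73, the others 0.22 to 0.28). For CDC42EP3 all 3 were replicate 3 at 1 h, at 56.4 with carbachol (the others 25.8 to 30.7), 57.3 with indacaterol (24.0 to 30.1) and 73.0 with all 3 agents (28.7 to 34.4).

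In 5 results an effect differed between conditions by a test of the difference itself. The indacaterol effect differed with mometasone for RHOB at 2 h (-0.98) and for RND3 at 1 h (-0.53). Neither of these was called with rescaled libraries or without replicate 2. The average indacaterol effect at 6 h was lower than at 2 h for RHOB (-2.28), RND3 (-1.16) and RHOV (-0.50).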

How the results depend on the processing

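For 52 results on single genes, 638 of 639 values under the alternatives kept their direction, and 573 kept their direction and side of the threshold. The 1 reversal was RHOA with mometasone alone at 18 h, at 0.031 with quantile normalization, where the cause was not tested. The average indacaterol effect on RHOB at 6 h was 0.41 (adjusted p = 0.05004) with libraries rescaled to the same sum. Calls among the 7 genes, summed over times, changed by over 1.5 times as follows. For mometasone alone there were 9 calls (4 higher, 5 lower), 3 with rescaled libraries (1 higher, 2 lower), and 4 to 9 without 1 replicate number. For carbachol alone there were 0, 1 with the replicate block, and 0 to 1 without 1 replicate number. The average carbachol effect gave 1, and 0 with each time fitted alone, with rescaled libraries and, at the lowest, without 1 replicate number. The interaction of mometasone and indacaterol gave 2, 1 with a pseudocount of 0.1, with each time fitted alone and with quantile normalization, 0 with rescaled libraries, 6 with the replicate block, and 0 to 3 without 1 replicate number. The change of the indacaterol effect between times gave 3, and 7 with the replicate block. Rescaling moved the median of all genes by over 0.1 in 6 comparisons, between -0.18 and 0.19.

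The replicate block, where the numbers pair the samples, changed no other call of these 7 genes than that of CDC42EP3 with mometasone alone at 1 h. In the other comparisons within a time, at least 1 same-numbered pair correlated at 0.1 or below. Yet 84.3% to 95% of all same-numbered pairs within a time were above 0.1. The median correlation of same-numbered libraries was 0.28 to 0.40, and -0.09 to -0.06 for other numbers. In comparisons that missed the pairing limit the block added calls. Among them were the interactions of mometasone and indacaterol at 1 h for CDC42EP3 (-0.73, limma adjusted p = 1.4e-04) and RHOB (-0.69, adjusted p = 0.0058). RND3 gained a call for that interaction at 2 h (-0.44, adjusted p = 0.0014). Between times, RHOB gained one for the change from 1 to 2 h (0.54, adjusted p = 0.0063). The block raised counts over all genes as well, from 91 to 5277 for the interaction of mometasone and indacaterol at 1 h and from 579 to 1517 for indacaterol alone at 2 h. Depth is unknown, and RHOU, RHOV and RND1 lie at values where small differences cannot be resolved.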
